A study of Homo sapiens with 8 samples.

Results

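Solute carriers of the amino acid and neurotransmitter families were followed in MP38, a uveal melanoma cell line with a BAP1 mutation, after 24 h of drug exposure. The members are all genes of the count table whose symbols belong to the families SLC1A, SLC3A, SLC6A, SLC7A, SLC17A, SLC18A, SLC32A, SLC36A, SLC38A and SLC43A. There were 72 of them among 35238 genes. The 4 groups were a control in 0.1% DMSO, 40 nM romidepsin, 40 nM quisinostat and 1200 nM mivebresib, with the same DMSO content, and each group had 2 libraries from separate wells of this 1 cell line. Romidepsin and quisinostat inhibit histone deacetylases (HDACs), and mivebresib inhibits the BET family of bromodomain proteins. Because all libraries come from 1 line, p-values describe the spread between wells and not between tumours.

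Solute carriers are membrane proteins that move small molecules across the cell surface or an organelle membrane. The SLC1 family takes up glutamate, aspartate and small neutral amino acids. The SLC6 family couples sodium to the uptake of gamma-aminobutyric acid (GABA), dopamine, glycine, taurine, creatine or amino acids, and SLC7 proteins carry cationic and large neutral amino acids, many of them only when bound to an SLC3 heavy chain. SLC17, SLC18 and SLC32 proteins mostly load vesicles or work in lysosomes, while SLC36, SLC38 and SLC43 proteins carry glutamine, proline, small neutral amino acids, branched-chain amino acids and related substrates. In growing cells the nutrient carriers feed protein and glutathione synthesis, whereas the transmitter carriers are best known from neurons and glia.

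Library totals were between 28483235 and 29359024 counts. Levels are given as counts or as CPM, the count scaled to a common library size by the trimmed mean of M-values (TMM). Of the 72 members, 48 had enough counts to be tested among 15085 genes, and 10 of those 48 passed while below the filter level in a control library, so that they could pass only if another group was higher. The 24 members not tested included 4 at 0 in all 8 libraries (SLC17A1, SLC17A2, SLC17A3 and SLC6A18). In all, 23 members had at most 10 counts in every library, among them the noradrenaline carrier SLC6A2, the serotonin carrier SLC6A4, the neuronal glycine carrier SLC6A5 and the vesicular carriers SLC17A8 and SLC18A1. The remaining untested gene, the arginine carrier SLC7A3, had 9 and 14 counts with quisinostat, 0 and 2 with mivebresib and 0 in both control and both romidepsin libraries. The line carried melanocytic transcripts: 6 of 7 melanocytic marker genes were tested, with TYRP1 at a control mean of 3549 CPM, and the remaining one, DCT, had only a few counts. Leukocyte, fibroblast and endothelial markers were at or near 0 apart from CD68 and low COL1A1, KDR, PECAM1 and PDGFRB.

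The 2 control wells differed more than the wells of any drug. Counts in control replicates 1 and 2 gave a chi-square per degree of freedom of 58.1, against 9.52 to 9.79 in the drug groups. For the carriers the gap had a direction: 38 of the 48 tested members were higher in control replicate 2, with a median log2 ratio of 0.40, while over all genes 49.9% were higher in that library. In replicate 2 of romidepsin, quisinostat and mivebresib, 14, 38 and 29 of the tested members were higher. The median log2 ratios there were smaller, at -0.11, 0.10 and 0.068. Changes of abundant carriers below about 0.40 on the log2 scale therefore depend on which control well they are set against, and calls lost without either well are given beside the gene. Calls were gained too: without control replicate 1, romidepsin lowered 8 members in place of 2, quisinostat 11 in place of 6 and mivebresib 15 in place of 9. Without control replicate 2, romidepsin raised 26 in place of 19, quisinostat 29 in place of 22 and mivebresib 20 in place of 14. SLC7A4 was called with mivebresib in opposite directions in these fits, at log2 -0.33 without control replicate 1 (adjusted p = 0.0309) and 0.34 without control replicate 2 (adjusted p = 0.0304), and was not called with both wells.

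Per kilobase of exon, the highest control levels belonged to nutrient carriers. The glutamine carrier SLC38A2 stood at 94.96 ± 29.1 CPM per kb (SD, n = 2), the leucine carrier SLC7A5 at 89.9 ± 23.3, the creatine carrier SLC6A8 at 74.0 ± 4.63, the heavy chain SLC3A2 at 62.0 ± 16.5, the neutral amino acid carrier SLC7A8 at 49.7 ± 10.4, the glutamine exchanger SLC1A5 at 43.9 ± 10.9 and the purine base carrier SLC43A3 at 37.8 ± 10.8. Neighbours in this order did not differ beyond their spread. The neuronal glutamate carrier SLC1A1 stood at 9.91 ± 3.21 CPM per kb, the vesicular neutral amino acid carrier SLC6A17 at 7.02 ± 1.62 and the vesicular acetylcholine carrier SLC18A3 at 2.13 ± 0.130.

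Summed over all members, the control libraries held 3734 ± 837 CPM, romidepsin 4459 ± 277, quisinostat 3434 ± 201 and mivebresib 4598 ± 84.3 (SD, n = 2). The 2 control wells lay further apart than any 2 group means. Both libraries of at least 1 drug lay outside the control wells in the sums of SLC6, SLC18 and SLC43, among others. The SLC6 sum was 652 ± 47.2 CPM in control, 592 ± 23.0 under romidepsin, 526 ± 8.40 under quisinostat and 982 ± 45.5 under mivebresib. The SLC18 sum was 5.68 ± 0.174 CPM in control, 14.1 ± 0.222 under romidepsin, 51.6 ± 0.0796 under quisinostat and 2.80 ± 0.597 under mivebresib. The SLC43 sum went from 178 ± 50.6 CPM in control to 145 ± 8.55, 92.8 ± 3.77 and 86.0 ± 2.18 in the same order. These sums were not tested, and 1 or a few genes made up each: SLC6A8 most of SLC6, SLC18A3 most of SLC18 and SLC43A3 most of SLC43.

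**Figure D1:**
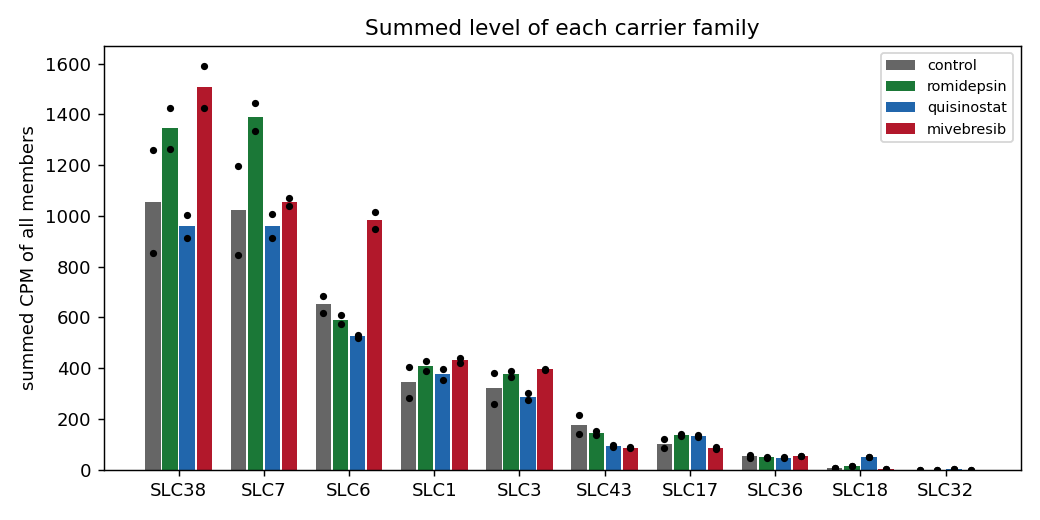
Summed CPM of all members of each family (vertical axis, linear, from 0) in the 4 groups. Bars are means of 2 libraries and points are the libraries. The SLC6 bar reaches 982 CPM with mivebresib against 652 CPM in control, and the wide gap between the control points recurs in SLC38, SLC7, SLC1 and SLC3.

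Members were then compared with control gene by gene with edgeR's quasi-likelihood test, a call being an adjusted p below 0.05 over all 15085 genes. Romidepsin raised 19 members, where 15.2% of all tested genes were called higher, and lowered 2, where 15.8% of genes were called lower. Quisinostat raised 22 (28.0% of genes) and lowered 6 (25.1% of genes). Mivebresib raised 14 (22.2% of genes) and lowered 9 (24.1% of genes). Members that also moved beyond 1.5 on the log2 scale numbered 7 higher and 0 lower with romidepsin (3.77% and 0.312% of genes), 15 higher and 0 lower with quisinostat (11.2% and 1.03% of genes), and 5 higher and 3 lower with mivebresib (3.96% and 4.36% of genes). With either HDAC inhibitor no tested member lay below -1.5 at any p. The median log2 fold change over the 48 tested members was 0.45 with romidepsin, 0.53 with quisinostat and 0.20 with mivebresib, beside -0.012, -0.0036 and 0.0067 over all tested genes. It moved with the control well: without control replicate 1 the medians were 0.24, 0.31 and -0.04, and without control replicate 2 they were 0.69, 0.70 and 0.46. Over the 28 members with a mean of at least 5 CPM they were 0.36, 0.15 and 0.056, and the mivebresib median was 0.049 without mivebresib replicate 2 and 0.047 over the 39 members tested with only the 4 libraries of that comparison. All 3 comparisons share the control libraries. In total 39 members (81.3%) were called for at least 1 drug, as were 74.0% of all tested genes. Called higher with both HDAC inhibitors were 15 members (31.3%, against 12.0% of genes). Called higher with all 3 drugs were 5 (10.4%, against 5.40% of genes), among them SLC6A3, SLC6A11, SLC6A17 and SLC17A7. Both overlaps rest on romidepsin calls, of which 7 of 21 held in every alternative fit that gave a value. The romidepsin call was lost in 3 of 15 alternatives for SLC6A3, 7 of 14 for SLC6A11, 9 of 16 for SLC6A17 and 2 of 16 for SLC17A7. Another 4 members were called in opposite directions by different drugs (8.33%, against 9.31% of genes), namely SLC1A3, SLC6A8, SLC7A8 and SLC18A3. Lost in some alternatives were the mivebresib call of SLC1A3 (5 of 15), the quisinostat call of SLC6A8 (5 of 16) and the romidepsin call of SLC7A8 (1 of 16).

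**Figure D2:**
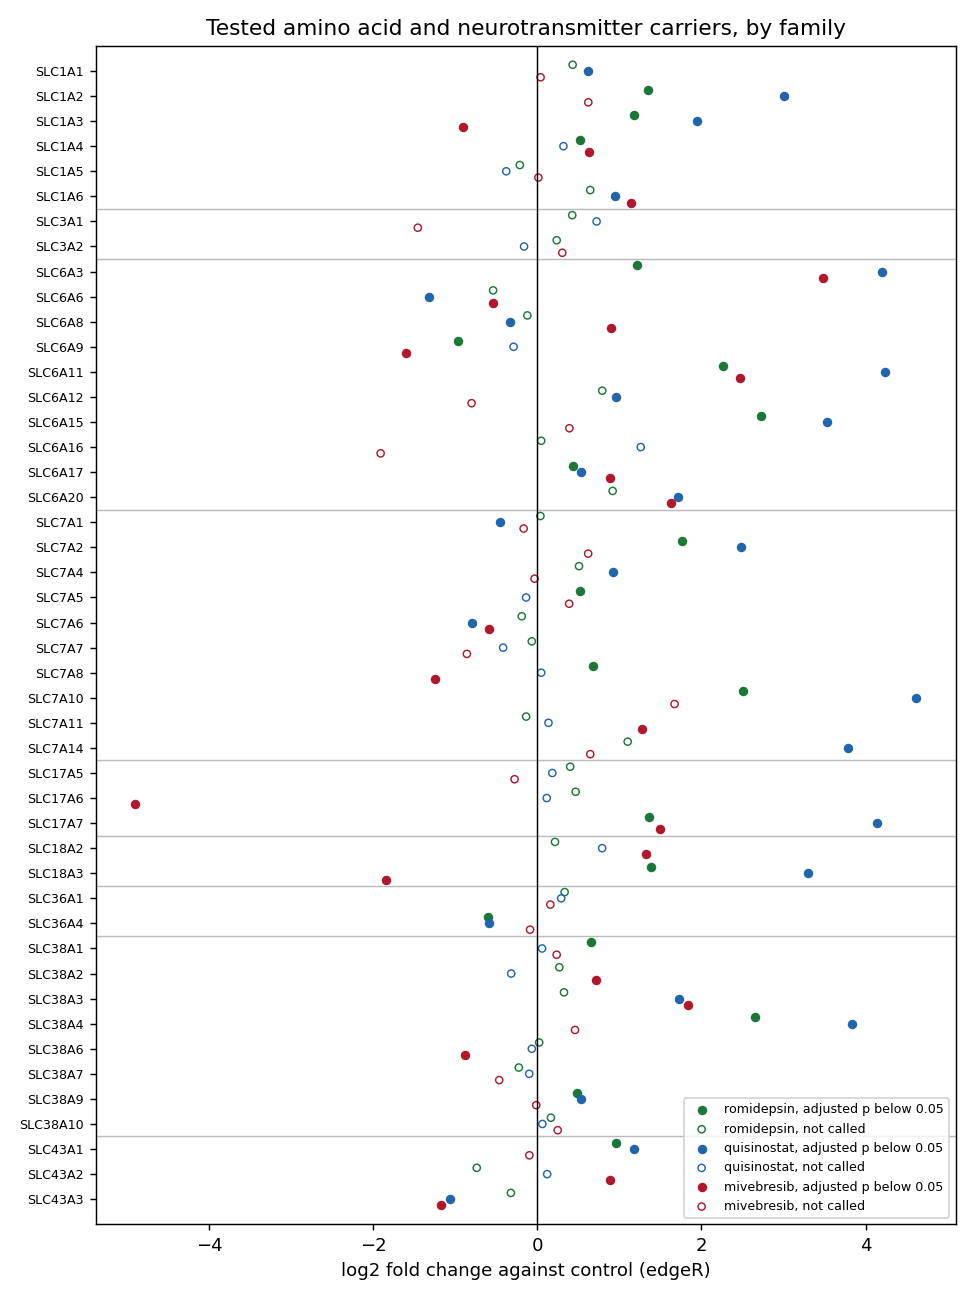
Log2 fold change against control (horizontal axis) for 46 of the 48 tested members, grouped by family between grey lines. Filled points are called at an adjusted p below 0.05 and open points are not; SLC32A1, at 0 in both control libraries, is not drawn. Quisinostat lies furthest right for most low-level carriers, such as SLC7A10, SLC6A3 and SLC17A7, while SLC17A6 lies at -4.90 with mivebresib.

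The GABA carriers SLC32A1 and SLC6A11 rose with quisinostat from little or nothing in control. SLC32A1, which loads GABA and glycine into vesicles (chromosome 20, 38724462 to 38729372, GRCh38), had 0 and 0 counts in control and with mivebresib, 7 and 4 with romidepsin, and 45 and 48 with quisinostat. No quisinostat or romidepsin library overlapped the control libraries. Taking 3 counts per library as the floor for a count of 0, it was at least 13.7-fold higher with quisinostat (adjusted p = 0.000255) and at least 1.75-fold higher with romidepsin (adjusted p = 0.0208); the second call was lost without control replicate 1 (adjusted p = 0.0529) or romidepsin replicate 1 (adjusted p = 0.0990). SLC6A11, a GABA carrier of astrocytes, had 2 and 2 counts in control, 12 and 9 with romidepsin, 43 and 47 with quisinostat, and 16 and 7 with mivebresib. Its ratio to control was 19.9 with quisinostat (95% counting interval 7.49 to 74.5, adjusted p = 0.000240), 5.02 with romidepsin (1.69 to 20.1, adjusted p = 0.0317) and 5.80 with mivebresib (1.98 to 23.1, adjusted p = 0.0134). These intervals cover counting error only. The romidepsin call ended without either control or either romidepsin library (adjusted p between 0.0676 and 0.152) and without either quisinostat library (0.0573 and 0.0575), and the mivebresib call ended without mivebresib replicate 1 (0.0955). The betaine and GABA carrier SLC6A12 was called only with quisinostat (log2 fold change 0.95 ± 0.34 SE, adjusted p = 0.0438), a call lost in 11 of 15 alternatives, among them leaving out control replicate 1 (log2 0.53). Romidepsin gave 0.79 ± 0.35 (adjusted p = 0.119), and the direct difference between the HDAC inhibitors was 0.16 ± 0.32 (adjusted p = 0.726). Mivebresib gave -0.80 ± 0.42 (adjusted p = 0.150) and differed from quisinostat by -1.75 ± 0.38 (adjusted p = 0.00395).

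ABAT, the mitochondrial enzyme that breaks GABA down, stood at 2.76 and 2.45 CPM in control, 7.48 and 6.23 with romidepsin, 39.1 and 36.5 with quisinostat, and 7.39 and 9.02 with mivebresib. It was thus highest with quisinostat, by 3.86 ± 0.15 on the log2 scale (adjusted p = 9.54e-07). GAD1, which makes GABA, was measured at a control mean of 11.2 CPM and was called with no drug (log2 -0.28, 0.06 and 0.08 with romidepsin, quisinostat and mivebresib), and its relative GAD2 had at most a few counts.

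The vesicular acetylcholine carrier SLC18A3 moved in opposite directions under the 2 drug classes. It lies at chromosome 10, 49610301 to 49612720, within the locus of CHAT, the enzyme that makes acetylcholine, on the same strand and without shared exons in GENCODE 29. SLC18A3 counts were 139 and 147 in control, 391 and 390 with romidepsin, 1595 and 1591 with quisinostat, and 42 and 37 with mivebresib, with no overlap between any 2 groups. The log2 fold change was 1.38 ± 0.10 (SE) with romidepsin (adjusted p = 8.85e-05), 3.30 ± 0.10 with quisinostat (adjusted p = 6.49e-07) and -1.84 ± 0.13 with mivebresib (adjusted p = 1.71e-05). Set directly against each other, mivebresib was lower than quisinostat by 5.14 on the log2 scale (adjusted p = 3.46e-07) and lower than romidepsin by 3.22 (adjusted p = 1.13e-06). CHAT had 9 and 10 counts in control, 26 and 44 with romidepsin, 191 and 181 with quisinostat, and 0 and 2 with mivebresib, and was called in the same directions (adjusted p = 0.0122, 3.12e-05 and 0.0163). Among the esterases, ACHE rose with both HDAC inhibitors (log2 0.57 and 1.13) and stood at log2 -0.40 with mivebresib without a call (adjusted p = 0.0722). BCHE rose by 1.57 and 2.40 on the log2 scale with romidepsin and quisinostat.

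The vesicular glutamate carriers parted from each other. SLC17A6 (VGLUT2; chromosome 11, 22338097 to 22379503) had 57 and 70 counts in control, 104 and 80 with romidepsin, 75 and 81 with quisinostat, and only 1 and 3 with mivebresib. The mivebresib libraries lay below all 6 others, a 31.5-fold fall against control with a 95% counting interval of 12.0 to 117 (adjusted p = 4.83e-05), and neither HDAC inhibitor gave a call (log2 0.47 ± 0.23 and 0.12 ± 0.23). SLC17A7 (VGLUT1; chromosome 19, 49429401 to 49442360) had 33 and 16 counts in control, 59 and 73 with romidepsin, 506 and 473 with quisinostat, and 76 and 61 with mivebresib. All 3 drug groups lay above control, romidepsin and mivebresib overlapping each other. The log2 fold change was 4.14 ± 0.25 with quisinostat (adjusted p = 5.65e-06), 1.36 ± 0.30 with romidepsin (adjusted p = 0.00941, and 0.0609 without romidepsin replicate 2) and 1.49 ± 0.29 with mivebresib (adjusted p = 0.00342). The third tested SLC17 gene, the lysosomal sialic acid carrier SLC17A5, was called with no drug: it stood at 82.5 and 117 CPM in control, 137 and 127 with romidepsin, 109 and 118 with quisinostat, and 78.9 and 85.9 with mivebresib.

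Of the surface glutamate carriers, SLC1A3 also took opposite directions. SLC1A3 (GLAST of astrocytes) had 41 and 48 counts in control, 116 and 96 with romidepsin, 161 and 229 with quisinostat, and 21 and 26 with mivebresib, the groups not overlapping. The log2 fold change was 1.18 ± 0.24 with romidepsin (adjusted p = 0.00764), 1.95 ± 0.23 with quisinostat (adjusted p = 0.000200) and -0.91 ± 0.30 with mivebresib (adjusted p = 0.0358). The fall was the least firm of the 3, as it was lost without control replicate 2 (adjusted p = 0.110) or either mivebresib library (0.157 and 0.0848), and the romidepsin call was lost without romidepsin replicate 1 (0.0574). The direct difference between mivebresib and quisinostat was -2.86 ± 0.26 (adjusted p = 3.45e-05). SLC1A2 (GLT-1, the other main glutamate carrier of astrocytes) had 4 and 9 counts in control, 18 and 17 with romidepsin, 59 and 61 with quisinostat, and 8 and 12 with mivebresib. It rose by 3.002 ± 0.37 on the log2 scale with quisinostat (adjusted p = 0.000242); the romidepsin call (1.35 ± 0.44, adjusted p = 0.0469) was lost in 11 of 15 alternatives, including each that left out a romidepsin, quisinostat or mivebresib library or control replicate 1 (log2 0.89 to 1.38), and the mivebresib libraries overlapped control. The neuronal carrier SLC1A1 was called with quisinostat (log2 0.62 ± 0.19, adjusted p = 0.0219), but not without either quisinostat library (adjusted p = 0.0544 and 0.110).

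SLC6A3, the dopamine carrier (chromosome 5, 1392790 to 1445430), rose with every drug. Its counts were 13 and 16 in control, 35 and 36 with romidepsin, 265 and 342 with quisinostat, and 155 and 168 with mivebresib, and no 2 groups overlapped. The log2 fold change was 4.20 ± 0.22 with quisinostat (adjusted p = 3.38e-06) and 3.48 ± 0.23 with mivebresib (adjusted p = 1.28e-05). With romidepsin it was 1.22 ± 0.28 (adjusted p = 0.0128), a call lost without control replicate 1 or either romidepsin library (adjusted p between 0.0564 and 0.0576). Mivebresib was below quisinostat by 0.72 ± 0.16 (adjusted p = 0.00458, and 0.0584 without quisinostat replicate 2). SLC18A2, which loads monoamines into vesicles, had 18 and 10 counts in control, 10 and 24 with romidepsin, 30 and 25 with quisinostat, and 43 and 27 with mivebresib. Its mivebresib call (log2 1.33 ± 0.47, adjusted p = 0.0447) was lost in 8 of 15 alternatives, among them leaving out control replicate 2 or mivebresib replicate 1 (log2 0.99 and 0.94), and its exons overlap those of PDZD8 on the other strand. The dopamine-making enzymes TH and DDC had 0 or 1 count in control replicate 1 and in the quisinostat libraries. Their counts in the other libraries are not given here.

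**Figure D3:**
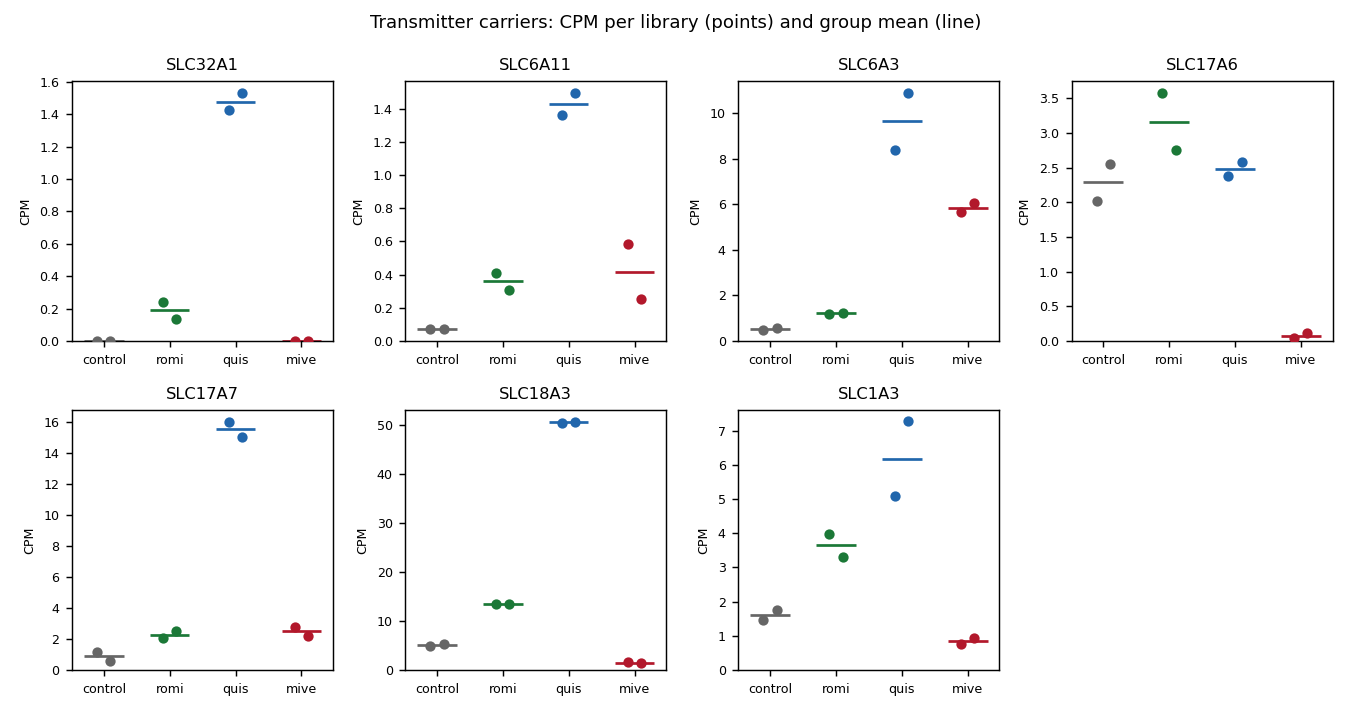
CPM (vertical axes, linear, from 0, scaled per gene) of 7 transmitter carriers in control, romidepsin (romi), quisinostat (quis) and mivebresib (mive). Points are libraries and lines are means of 2. Quisinostat is highest in every panel but that of SLC17A6; in that of SLC17A6 the mivebresib libraries stand at 0.0366 and 0.108 CPM against 2.02 and 2.56 CPM in control.

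Markers of other cell types were read in the same libraries. The 5 neuronal markers summed to 1.03 to 1.06 CPM in control, 3.06 to 3.36 with romidepsin, 14.6 to 15.3 with quisinostat and 2.70 to 3.18 with mivebresib, and 2, 4 and 1 of them were called higher. SYN1 rose with all 3 drugs (log2 3.08, 4.73 and 3.28), SNAP25 rose with romidepsin and quisinostat (0.88 and 3.85), and ELAVL4 was at or near 0 throughout. Under mivebresib the neuronal sum was thus above control, while the transmitter carriers went both ways. SLC17A6, SLC18A3, SLC1A3 and SLC6A9 were called lower with that drug, and others, including SLC6A3, SLC17A7 and SLC6A11, were called higher. The 3 astrocyte markers summed to 0.779 to 0.876 CPM in control and 0.654 to 0.721 with romidepsin. Their sum was 1.91 to 2.47 CPM with quisinostat and 0.256 to 0.827 with mivebresib. AQP4 was at 0 in all libraries, and 0, 1 and 0 of the astrocyte markers were called higher. The 4 endothelial markers summed to 0.602 to 0.913 CPM in control, 3.03 to 3.57 under romidepsin, 5.16 to 5.83 under quisinostat and 1.13 to 1.40 under mivebresib, with CDH5 at 0 in all libraries, and 1, 2 and 0 of them were called higher. The 6 fibroblast markers summed to 1.98 to 2.48 CPM in control, 4.23 to 5.46 under romidepsin, 8.44 to 10.9 under quisinostat and 1.28 to 1.76 under mivebresib, with 1 called higher under each HDAC inhibitor and 1 lower under mivebresib. The 5 leukocyte markers, mostly CD68, summed to 61.2 to 83.1 CPM over all libraries and none was called. The 7 melanocytic markers summed to 4192 to 5450 CPM in control, 4737 to 5025 with romidepsin, 3561 to 4107 with quisinostat and 3697 to 3774 with mivebresib, and 1, 3 and 4 of them were called lower. The part of other cell types in the result was not tested. In bulk RNA a change in the share of cells that express a gene and a change in RNA per cell cannot be told apart.

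The glycine carrier SLC6A9 (GlyT1) fell. It stood at 10.5 and 13.7 CPM in control, 6.80 and 5.54 with romidepsin, 9.91 and 9.90 with quisinostat, and 3.51 and 4.46 with mivebresib. Mivebresib lowered it by 1.60 ± 0.18 on the log2 scale (adjusted p = 0.000191) and romidepsin by 0.97 ± 0.17 (adjusted p = 0.00406). Quisinostat gave no call (-0.29 ± 0.17, adjusted p = 0.175), and mivebresib was below quisinostat by 1.31 ± 0.18 (adjusted p = 0.000389). GLDC, which cleaves glycine in mitochondria, rose with all 3 drugs, by 1.23, 2.31 and 1.77 on the log2 scale.

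A set of amino acid carriers that are scarce in this line rose with the HDAC inhibitors. SLC6A15, a carrier of branched-chain amino acids and proline, had 52 and 109 counts in control, 623 and 493 with romidepsin, 993 and 1119 with quisinostat, and 101 and 109 with mivebresib. The rise was 2.72 ± 0.27 on the log2 scale with romidepsin (adjusted p = 0.000259) and 3.53 ± 0.27 with quisinostat (adjusted p = 1.59e-05), while mivebresib lay within the control range. SLC38A4, a sodium-coupled carrier of small neutral amino acids, had 4 and 4 counts in control, 21 and 33 with romidepsin, 65 and 68 with quisinostat, and 7 and 4 with mivebresib, which gives 2.65 ± 0.44 (adjusted p = 0.00301) and 3.84 ± 0.40 (adjusted p = 8.98e-05) for the HDAC inhibitors. SLC7A2, an arginine carrier, had 20 and 16 counts in control, 64 and 64 with romidepsin, 104 and 125 with quisinostat, and 25 and 30 with mivebresib. Its log2 fold change was 1.76 ± 0.24 with romidepsin (adjusted p = 0.00119) and 2.48 ± 0.23 with quisinostat (adjusted p = 4.82e-05). These 3 genes showed the same order of groups, with quisinostat highest and mivebresib within or just above the control libraries. For all 3, mivebresib was lower than romidepsin in the direct contrast (log2 -2.33, -2.19 and -1.14, adjusted p = 0.000152, 0.00263 and 0.00323).

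SLC7A14, a lysosomal relative of the cationic carriers, and SLC7A10, a carrier of small neutral amino acids such as glycine and serine, were called higher with quisinostat and differed between the HDAC inhibitors. SLC7A14 had 4 and 3 counts in control, 11 and 5 with romidepsin, 63 and 50 with quisinostat, and 3 and 8 with mivebresib, and it rose by 3.79 ± 0.50 on the log2 scale with quisinostat (adjusted p = 0.000322). SLC7A10 had 2 and 1 counts in control, 8 and 11 with romidepsin, 42 and 48 with quisinostat, and 8 and 2 with mivebresib. The quisinostat libraries stood above all others in both genes. For SLC7A10 the ratio to control was 26.5 with quisinostat (95% counting interval 8.78 to 131, adjusted p = 0.000300) and 6.06 with romidepsin (1.78 to 31.95, adjusted p = 0.0383, lost without any 1 of the control, romidepsin or quisinostat libraries at adjusted p between 0.0674 and 0.147). Its exons overlap those of LRP3 on the other strand.

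A further pair was called higher with quisinostat and with mivebresib. SLC38A3, a glutamine carrier of liver and brain, had 62 and 82 counts in control, 85 and 104 with romidepsin, 243 and 296 with quisinostat, and 250 and 261 with mivebresib. It rose by 1.72 ± 0.19 and 1.84 ± 0.19 on the log2 scale (adjusted p = 0.000123 and 0.000109), and the difference between those drugs was 0.11 ± 0.17 (adjusted p = 0.581). SLC6A20, a proline carrier, had 6 and 3 counts in control, 6 and 12 with romidepsin, 16 and 18 with quisinostat, and 13 and 15 with mivebresib. Its calls (1.71 ± 0.50 with adjusted p = 0.0193, and 1.62 ± 0.52 with adjusted p = 0.0308) were lost without control replicate 2 (log2 1.32 and 1.24) or without either library of the drug concerned (adjusted p between 0.0583 and 0.118, the mivebresib call also without either quisinostat library).

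The promoters of SLC7A10 and SLC6A20, carriers called higher with quisinostat, differ in CpG content. Each is the 250 bases before the RefSeq start (GRCh38.p14), written on the strand of the gene, minus in both, with CpG dinucleotides in capitals. Neither window holds an annotated exon.
SLC6A20, chr3:45796537-45796786: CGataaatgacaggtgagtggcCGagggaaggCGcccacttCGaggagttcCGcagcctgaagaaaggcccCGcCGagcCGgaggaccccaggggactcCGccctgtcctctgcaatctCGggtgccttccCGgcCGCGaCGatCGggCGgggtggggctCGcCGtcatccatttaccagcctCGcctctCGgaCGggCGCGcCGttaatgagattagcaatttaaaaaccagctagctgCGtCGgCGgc
SLC7A10, chr19:33225851-33226100: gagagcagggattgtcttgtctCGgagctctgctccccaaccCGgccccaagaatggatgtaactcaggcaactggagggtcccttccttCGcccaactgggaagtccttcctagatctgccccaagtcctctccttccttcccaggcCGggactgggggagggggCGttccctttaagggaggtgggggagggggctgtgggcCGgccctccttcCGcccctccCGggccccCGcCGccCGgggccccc
The SLC6A20 window holds 27 CpG and the SLC7A10 window 11, where the median over 27305 promoters of that length is 11. The 9 promoters of members raised beyond 1.5 with quisinostat had a median of 17 CpG, and those of 27 other tested members 21. Of the 55 members with a promoter in the table, 3 hold the amino acid response letters TGATGNAA on either strand (3.19% of all promoters), 7 hold the antioxidant response letters TGACNNNGC (11%), 5 hold the E-box CACGTG (6.49%) and 1 holds TGACGTCA (1.77%). These are matches of letters only.

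Among the abundant carriers, SLC6A8 and SLC7A11 rose with mivebresib. The creatine carrier SLC6A8 (chromosome X, 153688099 to 153696593) stood at 425 and 389 CPM in control, 372 and 376 with romidepsin, 325 and 318 with quisinostat, and 794 and 717 with mivebresib. It rose by 0.89 ± 0.09 on the log2 scale with mivebresib (adjusted p = 0.000111) and was lower with quisinostat (-0.34 ± 0.09, adjusted p = 0.0138). The quisinostat call was lost in 5 of 16 alternatives, with log2 values between -0.41 and -0.14 over all of them. It ended under both other scalings, with only the 4 libraries of the comparison, and without either quisinostat library (log2 -0.34 and -0.33). The direct difference between these drugs was 1.23 ± 0.09 (adjusted p = 1.37e-05). SLC7A11, the cystine and glutamate exchanger (chromosome 4, 138164097 to 138242349), stood at 59.7 and 89.9 CPM in control, 74.5 and 61.6 with romidepsin, 78.3 and 86.0 with quisinostat, and 165 and 196 with mivebresib. Only the mivebresib libraries lay outside the control range on the high side, with a log2 fold change of 1.27 ± 0.19 (adjusted p = 0.000746), and mivebresib exceeded romidepsin and quisinostat by 1.41 and 1.13 (adjusted p = 0.000407 and 0.000926). SLC3A2, the heavy chain that SLC7A11, SLC7A5 and SLC7A8 bind, stood at 260 and 381 CPM in control, 390 and 366 with romidepsin, 273 and 301 with quisinostat, and 398 and 395 with mivebresib, and was called with no drug (log2 0.24, -0.16 and 0.30, adjusted p = 0.288, 0.422 and 0.151).

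SLC7A8, a carrier of large neutral amino acids, went down with mivebresib and up with romidepsin. Its CPM were 254 and 342 in control, 497 and 460 with romidepsin, 296 and 319 with quisinostat, and 124 and 128 with mivebresib. The log2 fold change was -1.24 ± 0.14 with mivebresib (adjusted p = 0.000159), 0.68 ± 0.13 with romidepsin (adjusted p = 0.00626, and 0.0540 without romidepsin replicate 1) and 0.05 ± 0.13 with quisinostat (adjusted p = 0.784). The contrast of mivebresib with romidepsin was -1.92 ± 0.14 (adjusted p = 1.69e-05). Its relative SLC7A5 (LAT1) stood at 349 and 505 CPM in control, 637 and 592 with romidepsin, 365 and 412 with quisinostat, and 567 and 550 with mivebresib. The romidepsin call for SLC7A5 (0.53 ± 0.16, adjusted p = 0.0374) was lost without any 1 drug library (log2 0.47 to 0.58, adjusted p between 0.0529 and 0.185), and the other drugs gave log2 -0.14 and 0.39 without a call.

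SLC43A3, the purine base carrier, fell with quisinostat and mivebresib. It stood at 136 and 205 CPM in control, 141 and 132 with romidepsin, 79.5 and 84.6 with quisinostat, and 75.3 and 76.4 with mivebresib, the last 4 libraries lying below both controls. The log2 fold changes were -1.06 ± 0.16 and -1.17 ± 0.17 (adjusted p = 0.000828 and 0.000597). Its relatives for branched-chain amino acids did otherwise. SLC43A1 rose with romidepsin (0.96 ± 0.23, adjusted p = 0.0142, and 0.108 without romidepsin replicate 1) and quisinostat (1.18 ± 0.22, adjusted p = 0.00234). SLC43A2 stood at 3.05 and 5.11 CPM in control, 2.92 and 1.96 with romidepsin, 4.46 and 4.39 with quisinostat, and 6.98 and 8.05 with mivebresib, and its mivebresib call (0.88 ± 0.25, adjusted p = 0.0183) was lost without control replicate 1 (log2 0.56) or mivebresib replicate 2 (log2 0.78).

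SLC6A6, the taurine carrier, fell with quisinostat. It stood at 141 and 222 CPM in control, 137 and 113 with romidepsin, 69.4 and 76.2 with quisinostat, and 119 and 131 with mivebresib. The quisinostat fold change was -1.32 ± 0.20 (adjusted p = 0.000646); the mivebresib call (-0.54 ± 0.19, adjusted p = 0.0469) was lost in 12 of 16 alternatives and stood at -0.18 without control replicate 2. SLC7A6, an exchanger of cationic and neutral amino acids, fell with quisinostat (-0.80 ± 0.14, adjusted p = 0.00166) and mivebresib (-0.59 ± 0.14, adjusted p = 0.00898, and 0.0684 without mivebresib replicate 1). SLC7A1, the main arginine carrier, was called lower with quisinostat (-0.45 ± 0.15, adjusted p = 0.0347), a call lost in 11 of 16 alternatives: under both other scalings, without control replicate 2 (log2 -0.18) and without any 1 drug library (adjusted p between 0.0517 and 0.185), among others.

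**Figure D4:**
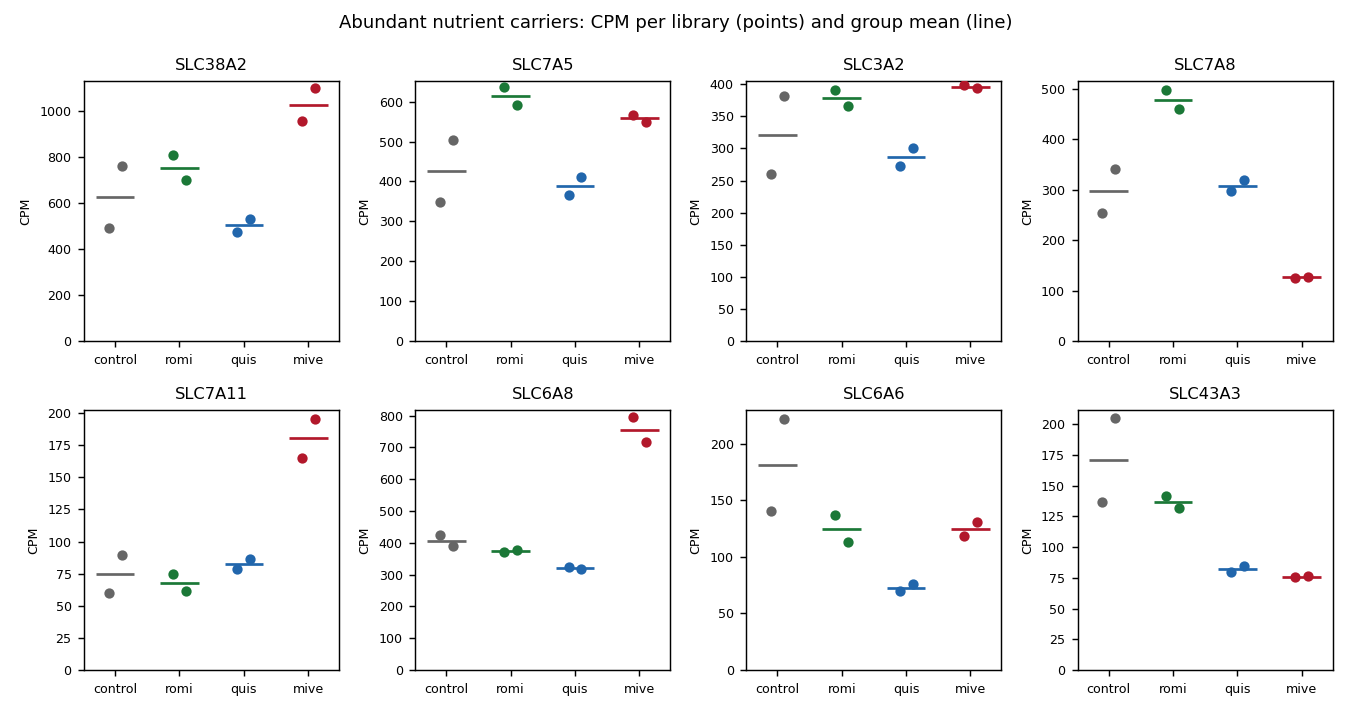
CPM (vertical axes, linear, from 0, scaled per gene) of 8 abundant nutrient carriers in the 4 groups, romi, quis and mive being romidepsin, quisinostat and mivebresib. Points are libraries and lines are means of 2. The mivebresib points stand above all others for SLC7A11 (165 and 196 CPM) and SLC6A8 (794 and 717 CPM) and below all others for SLC7A8 (124 and 128 CPM).

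The abundant glutamine and alanine carriers of the SLC38 family moved by less than 1 on the log2 scale. SLC38A2 stood at 491 and 763 CPM in control, 808 and 703 with romidepsin, 476 and 530 with quisinostat, and 958 and 1101 with mivebresib, and rose with mivebresib by 0.72 ± 0.19 (adjusted p = 0.0152, and 0.0992 without mivebresib replicate 2). SLC38A1 stood at 218 and 284 CPM in control, 411 and 376 with romidepsin, 252 and 270 with quisinostat, and 287 and 305 with mivebresib, and was called with romidepsin (0.65 ± 0.13, adjusted p = 0.00606, and 0.0555 without romidepsin replicate 1). SLC38A6 fell with mivebresib (-0.88 ± 0.11, adjusted p = 0.000253), although its exons overlap those of TRMT5 on the other strand. SLC38A9, the lysosomal arginine sensor, was called with romidepsin (0.48 ± 0.16, adjusted p = 0.0483) and quisinostat (0.53 ± 0.16, adjusted p = 0.0195). The romidepsin call was lost in 9 of 16 alternatives, among them leaving out control replicate 1 (log2 0.27) or any 1 drug library (log2 0.41 to 0.54, adjusted p between 0.0682 and 0.225). The quisinostat call was lost in 4 of 16, among them leaving out control replicate 1 (log2 0.29, adjusted p = 0.0530) or either quisinostat library (adjusted p = 0.0508 and 0.107). SLC38A7 and SLC38A10 were called with no drug.

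In the proton-coupled SLC36 family, SLC36A4 stood at 28.6 and 29.2 CPM in control, 19.1 and 19.1 with romidepsin, 19.6 and 18.8 with quisinostat, and 26.5 and 27.9 with mivebresib. It fell by nearly the same amount with both HDAC inhibitors (-0.60 ± 0.08 and -0.59 ± 0.08, adjusted p = 0.00103 and 0.000359), and the difference between them was 0.01 ± 0.08 (adjusted p = 0.961). SLC36A1 stood at 18.7 and 27.7 CPM in control, 30.01 and 28.4 with romidepsin, 27.1 and 29.7 with quisinostat, and 25.3 and 26.5 with mivebresib and was not called. Of the neutral amino acid exchangers, SLC1A4 stood at 129 and 183 CPM in control, 235 and 212 with romidepsin, 183 and 206 with quisinostat, and 248 and 233 with mivebresib. It was called with mivebresib (0.63 ± 0.15, adjusted p = 0.00986, and 0.0630 without mivebresib replicate 1) and with romidepsin (0.52 ± 0.15, adjusted p = 0.0332, lost without either romidepsin or either mivebresib library at log2 0.45 to 0.59). SLC1A5 stood at 121 and 172 CPM in control, 131 and 121 with romidepsin, 106 and 119 with quisinostat, and 151 and 144 with mivebresib, and was called with no drug. The vesicular neutral amino acid carrier SLC6A17 rose with mivebresib (0.89 ± 0.14, adjusted p = 0.00120) and quisinostat (0.54 ± 0.14, adjusted p = 0.0126, and 0.0814 without quisinostat replicate 2); its romidepsin call was lost without any 1 of control replicate 1 and the drug libraries (log2 0.24 to 0.51). SLC7A4 rose with quisinostat (0.93 ± 0.18, adjusted p = 0.00275), and its exons overlap those of P2RX6 on the other strand. SLC1A6 was called with quisinostat and mivebresib (0.95 and 1.14) at 10 to 30 counts per library, and neither call held without control replicate 2 (log2 0.70 and 0.90). The heavy chain SLC3A1 had 6 and 11 counts in control, 9 and 15 with romidepsin, 14 and 18 with quisinostat, and 4 and 2 with mivebresib, with no call against control, as for SLC6A16 and SLC7A7.

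Quisinostat and romidepsin were given at the same nominal dose and for the same time. In the paper romidepsin reduced MP38 viability at lower concentrations than quisinostat, so the same concentration need not mean the same strength of effect. Their direct comparison called 16 members higher with quisinostat (21.0% of all tested genes) and 8 lower (14.6% of genes). Beyond 1.5 on the log2 scale there were 9 higher and 0 lower (5.41% and 0.179% of genes), and no tested member lay below -1.5 at any p. Among the members higher by more than 1 were SLC6A3 (2.98 ± 0.19), SLC32A1 (2.94 ± 0.41), SLC17A7 (2.77 ± 0.22), SLC7A14 (2.69 ± 0.43), SLC7A10 (2.11 ± 0.43), SLC6A11 (1.97 ± 0.39), SLC18A3 (1.91 ± 0.09), SLC1A2 (1.66 ± 0.31), SLC38A3 (1.40 ± 0.18) and SLC38A4 (1.18 ± 0.29), and carriers of transmitters led them. The SLC38A4 difference lost its call without romidepsin replicate 1 or either quisinostat library (log2 0.89 to 1.20), and the SLC7A10 difference without romidepsin replicate 1 or quisinostat replicate 2 (log2 1.90 and 1.98). Carriers that were lower with quisinostat than with romidepsin were abundant nutrient carriers: SLC6A6 (-0.78), SLC43A3 (-0.74), SLC7A5 (-0.66), SLC7A8 (-0.64), SLC7A6 (-0.61), SLC38A1 (-0.59), SLC38A2 (-0.59) and SLC7A1 (-0.49). All 8 of these calls were lost without romidepsin replicate 1 or without quisinostat replicate 1. Then 0 members were called lower by edgeR, with 6 at an unadjusted p below 0.05 in both cases, while DESeq2 on all libraries called 10.

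Genes of the pathways that these carriers serve were read beside them. Of 14 tested genes of cystine use, glutathione and the thioredoxin system, 10 were higher and 1 lower with mivebresib (22.2% and 24.1% of all genes), with a median log2 fold change of 0.69. SRXN1, which repairs oxidised peroxiredoxins, rose from 241 and 190 CPM to 922 and 780 (log2 1.98 ± 0.14, adjusted p = 1.46e-05). TXNRD1, thioredoxin reductase, rose from 851 and 867 CPM to 2819 and 2682 (1.68 ± 0.09, adjusted p = 5.81e-06). GCLC, the rate-limiting subunit of glutathione synthesis, rose by 1.32 ± 0.08 and glutathione reductase GSR by 0.91 ± 0.09 (adjusted p = 9.12e-06 and 9.51e-05). The gene that fell was CBS (-0.82), which feeds cysteine synthesis from homocysteine. The same list gave 3 higher and 2 lower with romidepsin (15.2% and 15.8% of all genes) and 2 higher and 3 lower with quisinostat (28.0% and 25.1% of genes), with medians of 0.04 and -0.09. In both, KEAP1, the inhibitor of the antioxidant regulator NFE2L2, was among the lower genes (-1.05 and -1.18).

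In the amino acid response, all 20 listed genes were tested. Mivebresib raised 8 and lowered 6 (22.2% and 24.1% of all genes; median 0.05): ASNS, which makes asparagine, rose by 1.82 ± 0.08, ATF3 by 1.73 ± 0.14 and DDIT3 by 1.33 ± 0.17 (adjusted p = 2.61e-06, 3.28e-05 and 0.000337), while the proline enzyme PYCR1 stood at -0.87 ± 0.12 (adjusted p = 0.000482). The list did not move one way, and ATF4 itself was not called (-0.09). Quisinostat raised 3 and lowered 7 (28.0% and 25.1% of genes; median -0.17), and romidepsin raised 2 and lowered 5 (15.2% and 15.8% of genes; median -0.13). For amino acid sensing at the lysosome, 20 of 21 genes were tested, and 2 were higher and 1 lower with romidepsin, 5 and 4 with quisinostat, and 5 and 5 with mivebresib (medians -0.07, -0.17 and -0.02). Beside the shares of all genes just given, the mivebresib counts were close to the background and the other counts were below it or near it. SESN3 led the higher genes with each drug (0.91, 1.97 and 1.44).

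In transmitter breakdown all 10 genes were tested. Romidepsin raised 4 and lowered 2, quisinostat raised 7 and lowered 1, and mivebresib raised 4 and lowered 1 (medians 0.64, 1.72 and 0.48). Over all genes 15.2%, 28.0% and 22.2% were called higher and 15.8%, 25.1% and 24.1% lower in the same order. The quisinostat rises were led by ABAT (3.86), by MAOA and MAOB, which oxidise monoamines (3.46 and 3.14, MAOB from 1 and 2 counts in control to 23 and 9), and by BCHE (2.40). Of 13 genes of transmitter synthesis only 5 were tested, and 2 of them were called with romidepsin, both higher, 3 with quisinostat, 2 of them higher, and 2 with mivebresib, 1 in each direction (medians 0.46, 0.41 and 0.08), too few genes to set against these shares. GCH1, which makes the cofactor of monoamine synthesis, rose with all 3 drugs (0.82, 1.46 and 1.87).

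**Figure D5:**
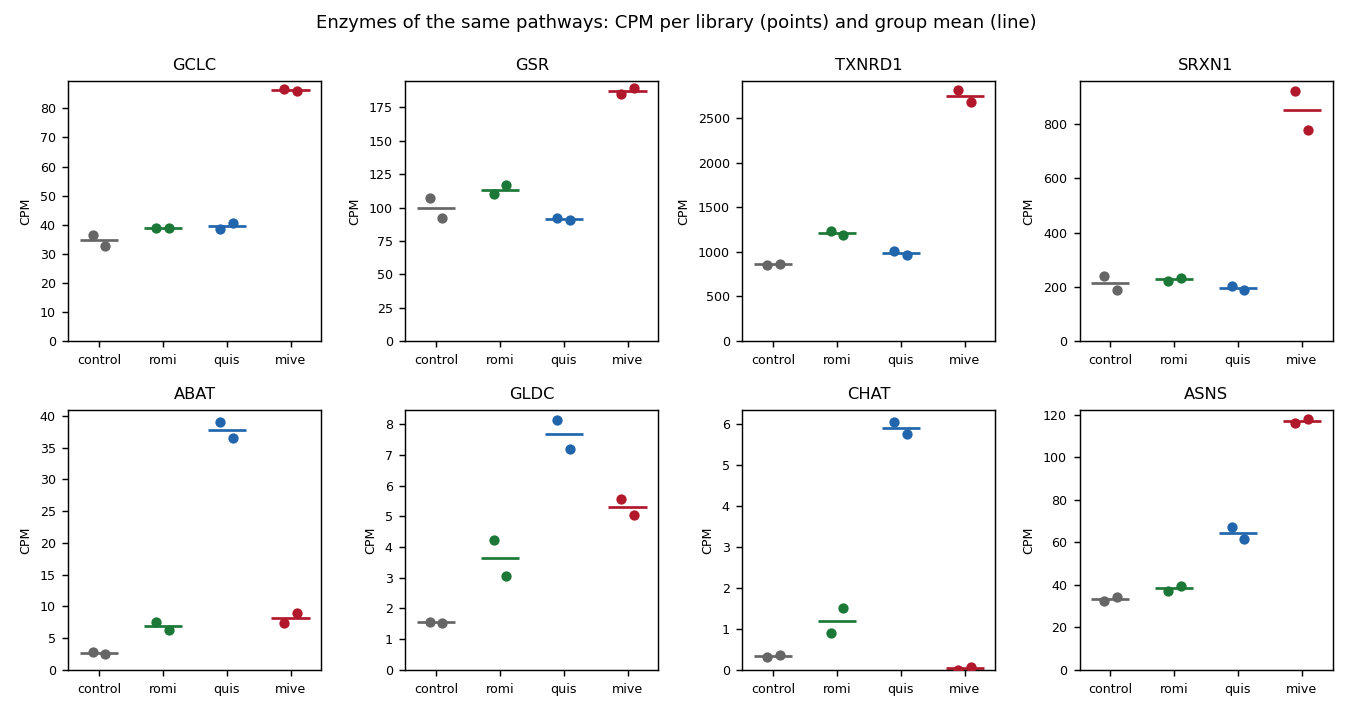
CPM (vertical axes, linear, from 0, scaled per gene) of 8 enzymes of the same pathways in the 4 groups, romi, quis and mive being romidepsin, quisinostat and mivebresib. Points are libraries and lines are means of 2. TXNRD1 reaches 2819 and 2682 CPM and SRXN1 922 and 780 CPM with mivebresib, whereas ABAT reaches 39.1 and 36.5 CPM with quisinostat.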

How the data were processed

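MP38 cells were exposed for 24 h in separate wells, and strand-specific mRNA libraries were sequenced as paired reads of 150 bases. The authors deposited raw counts per gene symbol for 8 libraries, with the hg38 build named in the submitters' processing notes; the aligner, annotation and strand setting are not given in the sources used here, so reads of overlapping antisense genes may not be separable. Normalized tables that the authors also deposited were not used. Groups came from the sample titles. Counts were fitted in 1 model over all 8 libraries with edgeR 4.0.16 (R 4.3.3): TMM factors, filterByExpr with its minimum count of 10, quasi-likelihood tests and Benjamini-Hochberg adjustment over 15085 genes, called at 0.05. SE is the absolute log2 fold change divided by the root of F. The method was tested on simulated data. Fold bounds use 3 counts per library for a count of 0, and exact 95% counting intervals cover counting error only. The members and gene lists were chosen with earlier results of these data known. Per-library values are given for members past 1.5 on the log2 scale, the 2 highest control members of each family and members that differed by more than 1 between the HDAC inhibitors. For each pathway list and drug, up to 4 called genes with the largest changes are named; markers and listed genes named for a level or a missing call were chosen after their values were seen. Positions and exon lengths are from GENCODE 29 (GRCh38), to which 72 members matched. Alternatives were DESeq2 1.42.0, limma-voom 3.58.1, other scalings and filters, the replicate block and leaving out each library. A member that is included in the counts of calls is not reported here.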

Additional observations from a re-analysis of the deposited data

How the results depend on the processing

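Over the 6 comparisons, counting the contrasts of mivebresib with each HDAC inhibitor, whose alternatives were chosen after seeing the data, no call of a member reversed direction in any of the 16 alternative fits. Of 156 called pairs of member and comparison, 89 kept their call in every alternative that gave a value: 7 of 21 with romidepsin, 20 of 28 with quisinostat, 13 of 23 with mivebresib, 9 of 24 between quisinostat and romidepsin, 16 of 27 between mivebresib and romidepsin and 24 of 33 between mivebresib and quisinostat. With a mean of at least 5 CPM required, which tests 28 members, romidepsin raised 9, quisinostat 8 and mivebresib 7, and 5 were higher with quisinostat than with romidepsin. With only the 4 libraries of the comparison, 9 were higher with romidepsin. With a log2 fold change beyond 1.5 also required, 7 were higher and 0 lower with romidepsin, 0 lower with quisinostat, 5 higher and 3 lower with mivebresib, and 9 higher and 0 lower between quisinostat and romidepsin. Leaving out 1 library gave 6 to 26 higher and 2 to 8 lower with romidepsin, 16 to 29 higher and 4 to 11 lower with quisinostat, 9 to 20 higher and 6 to 15 lower with mivebresib, and 9 to 18 higher and 0 to 12 lower between quisinostat and romidepsin; the remaining sample of that group was then assumed to vary like the other groups. Other counts stayed within 1.5 times their value. Scaling by library size alone moved the median of all genes to 0.20 with quisinostat and 0.059 with romidepsin, and upper-quartile factors to 0.13 and 0.072.

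The replicate numbers name wells only. Deviations of same-numbered libraries correlated between -0.33 (control and romidepsin) and 0.28 (control and quisinostat), and a replicate block gave 18 higher and 2 lower members with romidepsin, 20 and 6 with quisinostat, 13 and 10 with mivebresib and 16 and 8 between quisinostat and romidepsin.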

Other observations

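Among members too scarce to test, the retinal glutamate carrier SLC1A7 had 7 and 8 counts in control, 1 and 2 with romidepsin, 1 and 0 with quisinostat, and 1 and 0 with mivebresib, a ratio of control to romidepsin of 5.23 (95% counting interval 1.48 to 28.2). The broad amino acid carrier SLC6A14 had 5 and 3 counts with mivebresib and 0 to 2 in the other libraries. Pseudogenes, picked by symbol, that could share reads with members were low. SLC7A5P1 had 3 to 14 counts per library and SLC6A10P 3 to 19, against at least 9842 for SLC7A5 and 10004 for SLC6A8. SLC7A5P2 had 0 and 0 counts in control, 11 and 6 with romidepsin, 0 and 1 with quisinostat, and 9 and 2 with mivebresib.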
